A study of Mus musculus with 8 samples.

Results

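The 39 genes described here encode the proteins that carry glucose from its uptake to pyruvate, lactate and acetyl-CoA, together with the pentose phosphate branch. They were chosen by gene symbol from the 53801 genes of the table, with earlier results of these data known, so that their counts are not independent of the contrast. Raw counts entered the choice once, since Aldoa stands under more than 1 identifier and the identifier with most counts was taken. RNA was sequenced from stromal cells of MO5 tumors, which grow from B16 mouse melanoma cells that carry the ovalbumin gene. Tumors were implanted under the skin of adult ADAM12-GFP mice in the C57Bl/6 background, in which a bacterial artificial chromosome with Adam12 sequences drives Cre and GFP, and cells were isolated in the second week. Both groups were CD45–CD31– cells that stained for PDGFRα and PDPN, the mark of the fibroblast-like stroma, and sorting on GFP split them into ADAM12+ cells (GFP+, 4 libraries) and ADAM12– cells (GFP-, 4 libraries). No agent was given to either group according to the labels, which record the reporter state as a genotype. They do not say how many animals stand behind a library, so that p-values measure the spread between libraries. The study's legend gives n = 4 for this comparison, with n counting mice unless stated otherwise. The reporter marks cells in which the transgene is active, not the protein, and transcripts of Adam12 itself were found in both groups, at normalised counts (read counts divided by the library's size factor) from 919.7 to 1693 in the GFP- libraries and from 1833 to 2938 in the GFP+ libraries. Adam12 differed by 0.75 ± 0.24 (SE) on the log2 scale (adjusted p 0.0266 by DESeq2 and 0.0643 by edgeR), so that ADAM12– names the reporter gate and not an absence of the transcript.

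Glycolysis splits glucose into pyruvate in the cytosol, with an upper part that spends ATP and ends in triose phosphates and a lower part that returns ATP and NADH. Pyruvate is then either reduced to lactate by lactate dehydrogenase and exported by monocarboxylate transporters, or carried into the mitochondrion and oxidised to acetyl-CoA by the pyruvate dehydrogenase complex, which pyruvate dehydrogenase kinases switch off. The pentose phosphate branch takes glucose 6-phosphate away to make NADPH and ribose. Many steps have several isozymes that tissues use in different proportions, and tumor stroma is often studied for how much lactate it makes.

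Relative to their library totals, ADAM12+ cells held fewer transcripts of the main line of glycolysis and of lactate production. Transcripts of 13 of 14 melanocyte marker genes were lower in the same libraries, with summed normalised counts of 4653 to 12540 in GFP+ against 27170 to 78960 in GFP- libraries, and their part in this difference was not tested. Of the 39 genes, 38 received an adjusted p, and 14 of them (36.8%) were called lower in GFP+ cells (DESeq2 adjusted p under 0.05), against 4.76% of all genes tested. The genes called lower were Slc2a3, Hk1, Gpi1, Pfkl, Aldoa, Aldoc, Tpi1, Gapdh, Eno1, Pkm, Ldha, Ldhb, Slc16a3 and Dlat. Only G6pdx, at the entry of the pentose phosphate branch, was called higher, which is 2.63% of the 38 against 4.66% of all genes tested. The more cautious edgeR quasi-likelihood test called 10 of the 14 lower (2.28% of all genes tested were lower by that test) and 0 higher (2.83% of all genes tested). The median log2 fold change over the 39 genes was -0.49, and 31 of them lay below 0, while the median of all genes tested was -0.00818. In 12 genes every GFP+ library lay below every GFP- library, a pattern of 5.95% of all genes tested, and in 2 genes every GFP+ library lay above, a pattern of 6.37% of all genes tested.

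By role, 9 of the 16 enzymes from hexokinase to pyruvate kinase were called lower and 0 higher, with a median log2 fold change of -0.97. Of the lactate genes 3 of 4 were called lower. Glucose uptake had 1 of 2 called lower, and pyruvate entry into the mitochondrion 1 of 7. None of the 3 tested genes of the bifunctional PFKFB enzymes was called by DESeq2 or edgeR, and of the 6 pentose phosphate genes 0 were called lower and 1 higher. All 39 genes together took 0.407% ± 0.0503 (SD, n = 4) of the reads assigned to genes in GFP- libraries and 0.241% ± 0.00488 (SD, n = 4) in GFP+ libraries. The GFP- shares were 0.407%, 0.409%, 0.345% and 0.468% in replicates 1 to 4, and the GFP+ shares were 0.234%, 0.243%, 0.242% and 0.246%. The highest GFP+ share was therefore below the lowest GFP- share, and the GFP+ libraries were closer to each other than the GFP- libraries were.

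**Figure D1:**
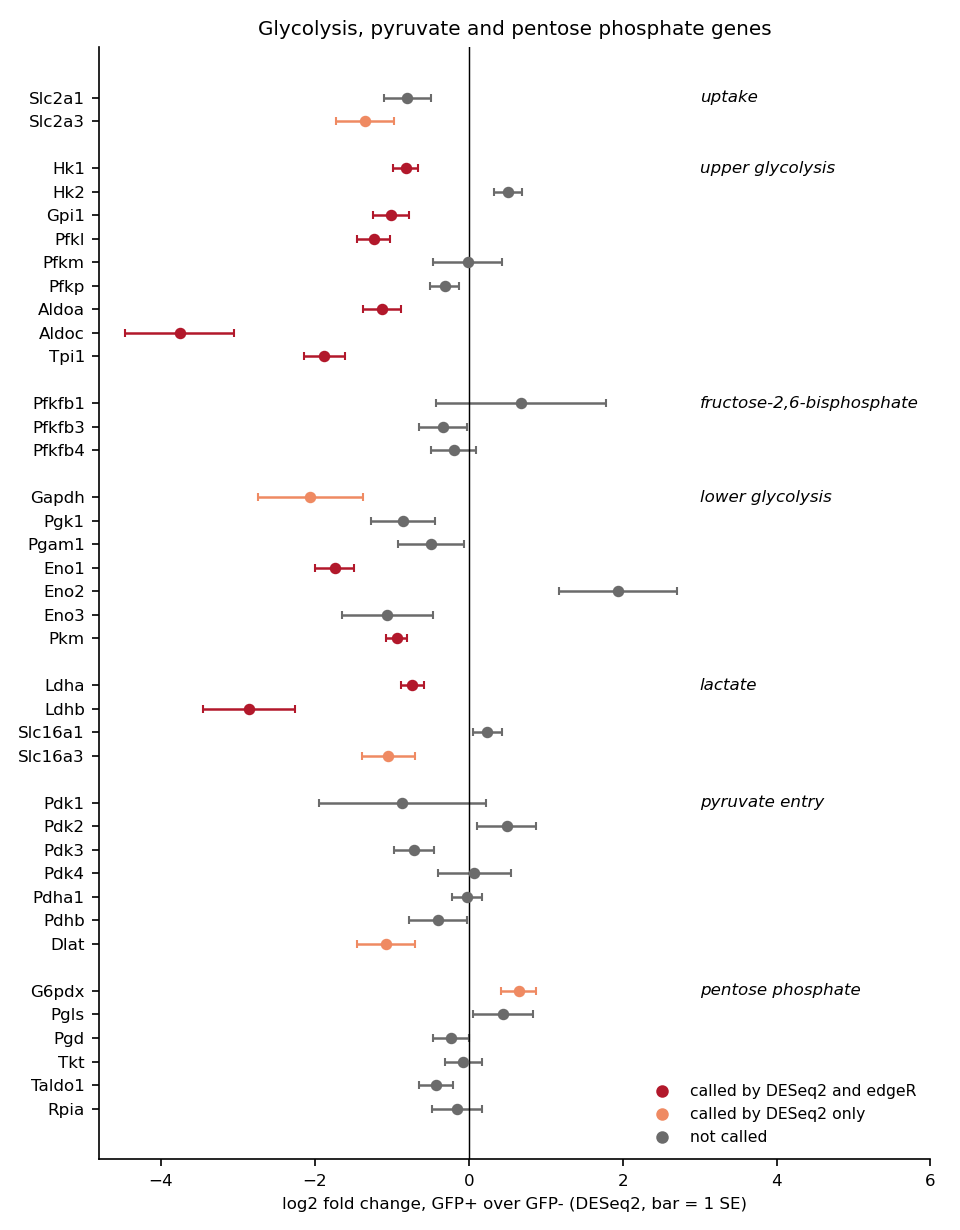
Log2 fold change of the 38 genes with an adjusted p (x axis, GFP+ over GFP-; bars are 1 SE), grouped from top to bottom by their place in the pathway and coloured by whether DESeq2 and edgeR called them at an adjusted p under 0.05. The 10 genes called by both tests all lie left of 0, and they belong to upper glycolysis, lower glycolysis and the lactate step.

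The libraries differed in depth and in the transcripts of another cell type. Total counts ran from 883144 to 17535099 in GFP- and from 8776925 to 31666734 in GFP+ libraries, and GFP- replicate 3 was the shallowest, with a size factor of 0.0910. Without it, 13 of the 38 tested members were called lower (34.2%), against 5.89% of all genes tested in that fit. These were not all the same genes, since Gapdh, Slc16a3 and Dlat lost the call while Pgk1 and Pdk3 gained it. Of the 14 melanocyte genes, the 1 not called lower, Mc1r, had no count in any library. Their sum made up 0.280% to 0.857% of all counts in GFP- libraries and 0.0382% to 0.118% in GFP+ libraries. Of 9 fibroblast genes, 7 were called higher and 0 lower, Pdgfra among them with a log2 fold change of 1.32. In sorted bulk cells, fewer cells of one type and fewer transcripts per cell cannot be told apart.

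Levels of different genes were compared per kilobase of exon, on the scale of mean normalised counts. In GFP- libraries Aldoa was the highest of the 39 genes at 1861 per kilobase, followed by Pkm at 1154, Ldha at 881, Tpi1 at 629 and Hk2 at 514. In GFP+ libraries Aldoa was again the highest at 858, and Hk2 came next at 729, before Pkm at 605, Ldha at 532 and Pdha1, a subunit of pyruvate dehydrogenase, at 401. Tpi1 was at 172 in GFP+ libraries. Over all 8 libraries Aldoa, Pkm, Ldha and Hk2 stood at percentiles 98.6, 97.8, 97.1 and 96.6 of the genes tested. The lowest were Pfkfb2 and Pfkfb1, at 0.30 and 2.59 per kilobase in GFP- libraries.

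Glucose uptake was represented by the transporters GLUT1 and GLUT3. Slc2a3, which encodes the high-affinity transporter GLUT3 (chromosome 6, 122727809 to 122801640, minus strand, GRCm38), had normalised counts of 136, 259, 198 and 123 in GFP- replicates 1 to 4 and of 62.5, 78.2, 46.1 and 89.9 in GFP+ replicates 1 to 4. Its groups did not overlap. It fell by 1.35 ± 0.38 (SE) on the log2 scale (adjusted p 0.00713 by DESeq2 and 0.0826 by edgeR), and without GFP- replicate 2 the DESeq2 adjusted p was 0.103. Slc2a1, which encodes the widespread transporter GLUT1, had 1966, 1548, 1066 and 732 in GFP- libraries and 753, 604, 968 and 737 in GFP+ libraries. GFP- replicate 4 lay among the GFP+ libraries, and the log2 fold change, -0.80 ± 0.30 (SE), was not called (adjusted p 0.0757 by DESeq2). That p became 0.0036 without GFP- replicate 4. Per kilobase of exon, the mean level of Slc2a1 was 379 in GFP- and 218 in GFP+ libraries, far above the 24.7 and 9.55 of Slc2a3, so that GLUT1 had more transcripts than GLUT3 in both groups.

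The hexokinases, which trap glucose in the cell as glucose 6-phosphate, showed opposite signs. Hk1 (chromosome 10, 62268855 to 62379908, minus strand) had 2389, 1860, 1615 and 2061 normalised counts in GFP- libraries and 1093, 1085, 1251 and 1092 in GFP+ libraries. Every GFP+ library was lower, and Hk1 fell by 0.82 ± 0.17 (SE) on the log2 scale, a 1.77-fold difference (adjusted p 3.77e-05 by DESeq2 and 0.0108 by edgeR). Hk2 (chromosome 6, 82725025 to 82774454, minus strand), the isozyme of muscle, fat and many tumor cells, had 3044, 2412, 3890 and 2929 in GFP- libraries and 4864, 3775, 4698 and 4070 in GFP+ libraries. GFP+ replicate 2 lay just under GFP- replicate 3, the shallowest library. Hk2 had a difference of 0.51 ± 0.18 (SE) on the log2 scale (adjusted p 0.054 by DESeq2 and 0.0939 by edgeR), and its place near the threshold moved with the settings. It was called higher without GFP- replicate 3 (adjusted p 0.00306 by DESeq2), with limma voom (0.0173), with TMM factors in DESeq2 (0.0251) and at a minimum mean count of 10 (0.0363). Of the hexokinase transcripts of these genes, counted per kilobase of exon, Hk2 made up 68.5% ± 6.08 (SD, n = 4) in GFP- libraries, between 64.6% and 77.5%, and 84.5% ± 1.34 (SD, n = 4) in GFP+ libraries, between 83.3% and 86.4%.

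Gpi1 and the phosphofructokinases come next in the pathway. Gpi1, the isomerase that makes fructose 6-phosphate (chromosome 7, 34201330 to 34230336, minus strand), had 2537, 3089, 2395 and 3654 normalised counts in GFP- libraries and 978, 1449, 1821 and 1556 in GFP+ libraries. The groups did not overlap, and Gpi1 fell by 1.01 ± 0.23 (SE) on the log2 scale (adjusted p 4.21e-04 by DESeq2 and 0.0142 by edgeR). Phosphofructokinase is the committed step of glycolysis and has liver (Pfkl), muscle (Pfkm) and platelet (Pfkp) forms. Pfkl (chromosome 10, 77986947 to 78010083, minus strand) had 969, 827, 725 and 728 in GFP- libraries and 453, 328, 286 and 328 in GFP+ libraries. Again no library overlapped, and Pfkl fell by 1.23 ± 0.21 (SE) (adjusted p 6.59e-07 by DESeq2 and 0.00379 by edgeR). Pfkp, with 2704, 1938, 1538 and 2197 in GFP- libraries and 1718, 1639, 1792 and 1645 in GFP+ libraries, overlapped between groups and was not called (log2 fold change -0.31 ± 0.19, SE; adjusted p 0.346 by DESeq2). Pfkm had 59.7, 240.1, 132 and 294 in GFP- libraries and 158, 203, 194 and 178 in GFP+ libraries, a difference of -0.01 ± 0.44 (SE) on the log2 scale, whose sign changed with the library left out.

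Aldolase and triose phosphate isomerase, which end the upper part of the pathway, held some of the largest differences. Aldoa (chromosome 7, 126795234 to 126800751, minus strand), the ubiquitous aldolase, had 5794, 5951, 3362 and 6562 normalised counts in GFP- libraries and 3419, 2073, 2189 and 2313 in GFP+ libraries. GFP+ replicate 1 and GFP- replicate 3 were nearly equal, and the other GFP+ libraries lay below all GFP- libraries. Aldoa fell by 1.12 ± 0.25 (SE) (adjusted p 2.49e-04 by DESeq2 and 0.0116 by edgeR). Aldoc, the aldolase of brain (chromosome 11, 78322968 to 78327781, plus strand), had 129, 93.9, 44.0 and 149 in GFP- libraries and 8.33, 3.35, 1.54 and 17.8 in GFP+ libraries. It was close to absent from GFP+ libraries, with a raw count as low as 2 in 1 of them, and it fell by 3.75 ± 0.71 (SE) (adjusted p 8.14e-06 by DESeq2 and 0.0193 by edgeR). Without GFP+ replicate 4, its highest GFP+ library, the log2 fold change of Aldoc was -4.74. Tpi1 (chromosome 6, 124810586 to 124814296, minus strand), which interconverts the triose phosphates, had 2131, 1610, 1077 and 2107 in GFP- libraries and 332, 523, 436 and 605 in GFP+ libraries. Its groups lay apart, and it fell by 1.88 ± 0.27 (SE), a 3.67-fold difference (adjusted p 6.08e-10 by DESeq2 and 0.00126 by edgeR).

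The PFKFB enzymes make and break fructose 2,6-bisphosphate, the strongest activator of phosphofructokinase. Pfkfb3, the form with high kinase activity, differed by -0.33 ± 0.31 (SE) on the log2 scale and Pfkfb4 by -0.19 ± 0.29 (SE), and neither was called (adjusted p 0.608 and 0.789 by DESeq2). Pfkfb3 ran from 272 to 527 normalised counts in GFP- libraries and from 231 to 416 in GFP+ libraries, and Pfkfb4 from 164 to 219.7 and from 118 to 236. Pfkfb1, the liver form, had 0, 14.3, 22.0 and 5.25 normalised counts in GFP- libraries and 26.4, 5.02, 16.1 and 9.73 in GFP+ libraries, a difference of 0.68 ± 1.10 (SE) on the log2 scale. Pfkfb2, the heart form, reached at most 9.06 normalised counts in any library and received no adjusted p. Pfkfb3 and Pfkfb4 were counted in every library, and neither was separate between the groups.

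In the lower part of glycolysis, Eno1 and Pkm stood out. Eno1 (chromosome 4, 150236721 to 150248879, plus strand), the enolase of most tissues, had 1495, 1548, 824 and 1960 normalised counts in GFP- libraries and 356, 477, 427 and 498 in GFP+ libraries. It fell by 1.74 ± 0.26 (SE), a 3.35-fold difference without overlap (adjusted p 2.83e-09 by DESeq2 and 0.00138 by edgeR). Pkm (chromosome 9, 59656368 to 59679375, plus strand), the pyruvate kinase whose M1 and M2 forms a count per gene does not separate, had 5915, 5879, 4911 and 6389 in GFP- libraries and 3124, 2996, 2807 and 3175 in GFP+ libraries. The spread within each group was small beside the gap between them, and Pkm fell by 0.94 ± 0.13 (SE), a 1.92-fold difference (adjusted p 4.81e-10 by DESeq2 and 0.00209 by edgeR). The neuronal enolase Eno2 had 0, 60.9, 87.9 and 52.0 in GFP- libraries and 292, 164, 157 and 122 in GFP+ libraries. All GFP+ libraries lay above, but GFP- replicate 1 had no count and its log2 difference, 1.94 ± 0.77 (SE), was not called (adjusted p 0.0945 by DESeq2, and 0.00648 without that library). The muscle enolase Eno3 had 48.8, 30.8, 65.9 and 90.4 in GFP- libraries and 16.7, 29.3, 15.4 and 49.3 in GFP+ libraries, and overlapped (log2 difference -1.06 ± 0.59, SE; adjusted p 0.30 by DESeq2).

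Gapdh, Pgk1 and Pgam1 were less certain. Gapdh (chromosome 6, 125161715 to 125166467, minus strand), glyceraldehyde 3-phosphate dehydrogenase, had 50.2, 1066, 462 and 121 normalised counts in GFP- libraries and 103, 135, 102 and 68.4 in GFP+ libraries. GFP- replicate 1 was below every GFP+ library while GFP- replicate 2 was far above, so the groups overlapped. Gapdh fell by 2.06 ± 0.68 (SE), with an adjusted p of 0.0311 by DESeq2 but 0.133 by edgeR, and the DESeq2 adjusted p was 0.442 without GFP- replicate 2, 0.0738 without GFP- replicate 3, and 0.236, 0.0796 and 0.275 without GFP+ replicates 1, 3 and 4. Its log2 fold change was -0.97 without GFP- replicate 2 and -1.20 with limma voom. Its level was low for a gene used as a reference in many assays, at percentile 63.9 of the tested genes per kilobase, against 98.6 for Aldoa. Gapdh has processed pseudogenes, and the 2 in the table with its name and a pseudogene suffix held 0 and 16 raw counts over all libraries beside 2530 for Gapdh. With them added the log2 fold change was -2.07 (adjusted p 0.0265 by DESeq2), while reads that the counting left out as shared are not seen in these values. Pgk1, phosphoglycerate kinase, ran from 187 to 784 normalised counts in GFP- libraries and from 206 to 549.9 in GFP+ libraries. It differed by -0.86 ± 0.42 (SE) on the log2 scale and was not called (adjusted p 0.206 by DESeq2). That value was 0.0091 without GFP- replicate 3 and 0.0279 without GFP+ replicate 1. With limma voom Pgk1 was called lower, with a log2 fold change of -1.31 (adjusted p 0.00856 by limma voom). Pgam1, phosphoglycerate mutase, with 65.9 to 270.0 in GFP- libraries and 83.0 to 194 in GFP+ libraries, differed by -0.49 ± 0.42 (SE), also not called (adjusted p 0.568 by DESeq2), and the near copy Pgam1-ps2 took up to 91 raw counts in a library.

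**Figure D2:**
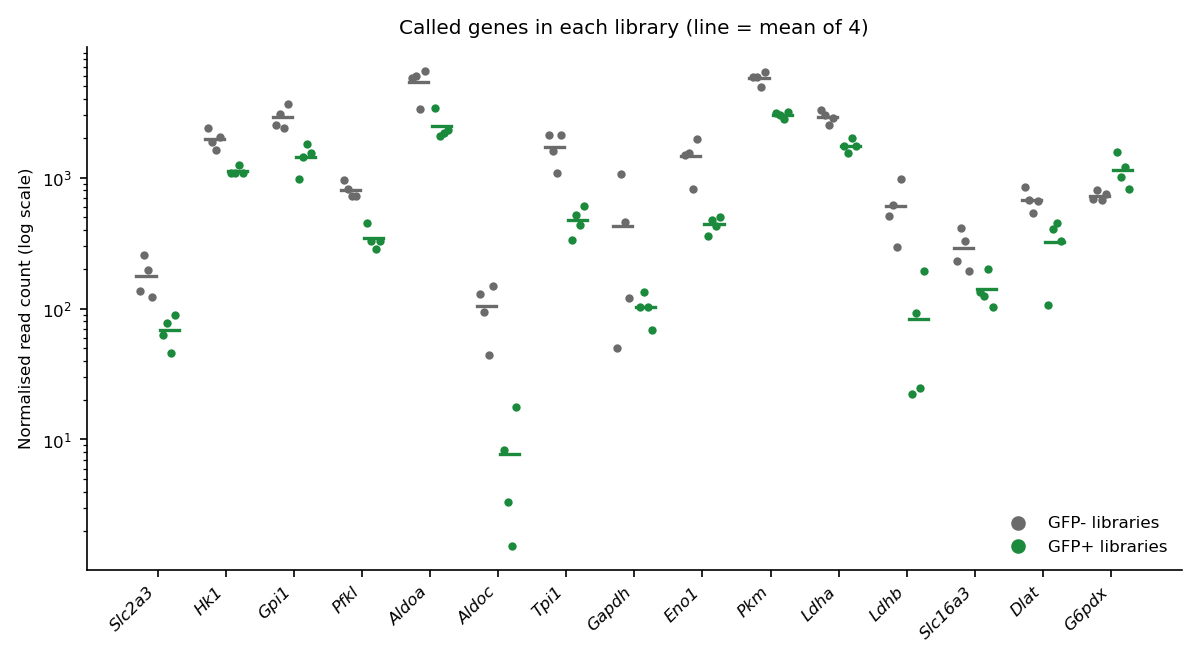
Normalised read count (y axis, log scale) of the 15 genes called by DESeq2, in each GFP- library (grey) and GFP+ library (green), with a line at each mean of 4. The groups are separate for all but Aldoa, Gapdh and Slc16a3, and Gapdh spreads from 50.2 to 1066 within the GFP- libraries.

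Both lactate dehydrogenase subunits were lower, and the study names Ldha and Ldhb from these samples, so that their direction here is not independent of it. Ldha (chromosome 7, 46841475 to 46855627, plus strand), the muscle-type subunit that favours lactate production, had 3270, 3006, 2516 and 2867 normalised counts in GFP- libraries and 1732, 1551, 2007 and 1755 in GFP+ libraries. It fell by 0.73 ± 0.15 (SE), a 1.66-fold difference without overlap (adjusted p 5.98e-05 by DESeq2 and 0.0138 by edgeR). Ldhb (chromosome 6, 142490249 to 142507957, minus strand), the heart-type subunit, had 513, 620, 297 and 981 in GFP- libraries and 22.2, 92.5, 24.6 and 194 in GFP+ libraries. GFP+ replicates 2 and 4 were several times above the other GFP+ libraries and still below every GFP- library. Ldhb fell by 2.85 ± 0.60 (SE), a 7.22-fold difference (adjusted p 9.44e-05 by DESeq2 and 0.0178 by edgeR). Without GFP+ replicate 4 its log2 fold change was -3.68. Per kilobase of exon, Ldhb made up 29.2% ± 9.45 (SD, n = 4) of the transcripts of both subunits in GFP- libraries, between 19.9% and 41.9%, and 8.80% ± 7.84 (SD, n = 4) in GFP+ libraries, between 2.52% and 18.9%.

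The proximal promoters of Ldha, Ldhb and Hk2 are shown because both lactate dehydrogenase subunits fell and Hk2 had the opposite sign to Hk1, and because the letters ACGTG and GCGTG are the core of the hypoxia response element while CACGTG is the E-box read by MYC and USF proteins. Each is the reference sequence of the 250 bases before a RefSeq start (GRCm38.p6), 5′ to 3′ on the gene's strand, at chr7:46845554-46845803 (plus strand) for Ldha, chr6:142507958-142508207 (minus strand) for Ldhb and chr6:82774455-82774704 (minus strand) for Hk2, with both hypoxia response cores and their reverse complements in capitals.
Ldha: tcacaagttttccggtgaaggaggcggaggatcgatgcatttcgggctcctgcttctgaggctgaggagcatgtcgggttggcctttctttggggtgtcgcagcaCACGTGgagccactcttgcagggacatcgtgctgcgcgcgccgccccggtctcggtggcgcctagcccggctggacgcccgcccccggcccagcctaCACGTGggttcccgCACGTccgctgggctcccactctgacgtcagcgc
Ldhb: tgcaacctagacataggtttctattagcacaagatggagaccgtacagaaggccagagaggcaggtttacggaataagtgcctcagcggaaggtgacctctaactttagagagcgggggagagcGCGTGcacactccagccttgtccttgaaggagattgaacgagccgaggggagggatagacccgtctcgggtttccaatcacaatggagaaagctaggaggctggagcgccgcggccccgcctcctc
Hk2: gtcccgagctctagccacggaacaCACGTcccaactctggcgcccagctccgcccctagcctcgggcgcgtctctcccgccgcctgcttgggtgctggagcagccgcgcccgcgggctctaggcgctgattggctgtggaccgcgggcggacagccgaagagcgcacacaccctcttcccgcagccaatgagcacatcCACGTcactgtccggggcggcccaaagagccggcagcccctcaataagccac

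The Ldha window held 5 matches to ACGTG over both strands, since each of its CACGTG palindromes is read on both, and 0 to GCGTG. The Ldhb window held 1 match to GCGTG and 0 to ACGTG, and the Hk2 window 2 to ACGTG and 0 to GCGTG. A further RefSeq start of Ldha had 0 matches to ACGTG and 1 to GCGTG before it, and Hk1 had 0 and 3 matches to GCGTG before its separate starts, with 0 to ACGTG at either. The windows of the RefSeq table were searched only over the 250 bases before each start. There ACGTG stood in 19 of the 58 windows of 38 of the genes (32.8%) and in 16.6% of all 32851 windows. GCGTG stood in 33 of the 58 (56.9%) and in 28.2% of all windows, and CACGTG, which contains ACGTG, in 6 of the 58 (10.3%) and in 6.02%. With 1 window taken for each gene, ACGTG stood in Aldoa, Ldha and Slc16a3 among the genes called lower. It also stood in Slc2a1, Hk2, Pfkm, Pfkfb2, Pfkfb3, Pgk1, Pgam1, Slc16a1, Pdk2, Pdk3 and Pdhb, which were not called. Whether these letters go with the calls was not tested. These are descriptions of letters in windows that were not matched on base composition, and which start the cells used cannot be read from counts per gene.

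Lactate leaves and enters cells through the monocarboxylate transporters MCT1 (Slc16a1) and MCT4 (Slc16a3), the second of which is the exporter of strongly glycolytic cells. Slc16a3 (chromosome 11, 120948480 to 120960868, plus strand) had 229, 415, 330 and 194 normalised counts in GFP- libraries and 135, 125, 199.7 and 103 in GFP+ libraries. GFP+ replicate 3 lay just above GFP- replicate 4. Slc16a3 fell by 1.05 ± 0.34 (SE) (adjusted p 0.0292 by DESeq2 and 0.111 by edgeR). Its DESeq2 adjusted p was 0.202 without GFP- replicate 2, 0.0592 without GFP- replicate 3, and 0.063, 0.102 and 0.119 without GFP+ replicates 1, 2 and 4. Slc16a1 had 609, 596, 879 and 801 in GFP- libraries and 761, 821, 931 and 843 in GFP+ libraries, which overlapped (log2 difference 0.24 ± 0.19, SE; adjusted p 0.514 by DESeq2). Of the transcripts of both transporters per kilobase, Slc16a3 made up 25.3% ± 8.29 (SD, n = 4) in GFP- libraries and 12.1% ± 2.51 (SD, n = 4) in GFP+ libraries.

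For the balance of isozymes at a step, 12 pairs were compared as the log2 ratio of their normalised counts plus 1. Pdha1 and Pdhb, a pair among them, are subunits of the same enzyme complex and not isozymes. In 6 pairs the libraries of the groups did not overlap, each with a two-sided exact permutation p of 0.0286, the smallest that the 70 divisions of the libraries allow, and a value of 0.0572 after adjustment over the 12 pairs. None of the 12 therefore passed an adjusted p under 0.05. Hk1, Pfkl, Aldoc, Eno1 and Ldhb, which belong to these 6 pairs, were called lower without overlap on their own. The ratios are therefore not separate from those calls, and the share of other gene pairs without overlap was not computed. The log2 ratio of Hk2 to Hk1 was 0.35, 0.38, 1.27 and 0.51 in GFP- libraries and 2.15, 1.80, 1.91 and 1.90 in GFP+ libraries, a mean difference of 1.31. The ratio of Pfkp to Pfkl differed by 0.96, in the same direction. The ratio of Ldhb to Ldha was -2.67, -2.28, -3.08 and -1.55 in GFP- libraries and -6.22, -4.05, -6.29 and -3.17 in GFP+ libraries, a mean difference of -2.54. Without GFP+ replicate 4 that difference was -3.13. The ratio of Slc16a3 to Slc16a1 differed by -1.26. That of Aldoc to Aldoa differed by -2.75, or by -3.03 and -1.56 with 0.1 and 10 added in place of 1. The ratio of Eno2 to Eno1 differed by 4.58, a size that rests in part on the pseudocount, because Eno2 had no count in GFP- replicate 1. Without that library it was 3.035, and without GFP- replicate 3 it was 5.48. The other 6 pairs overlapped, with exact permutation p from 0.0571 (Pfkm to Pfkl, a difference of 1.48) to 0.743 (Pfkfb4 to Pfkfb3, a difference of 0.09), which does not show that their balance was equal.

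**Figure D3:**
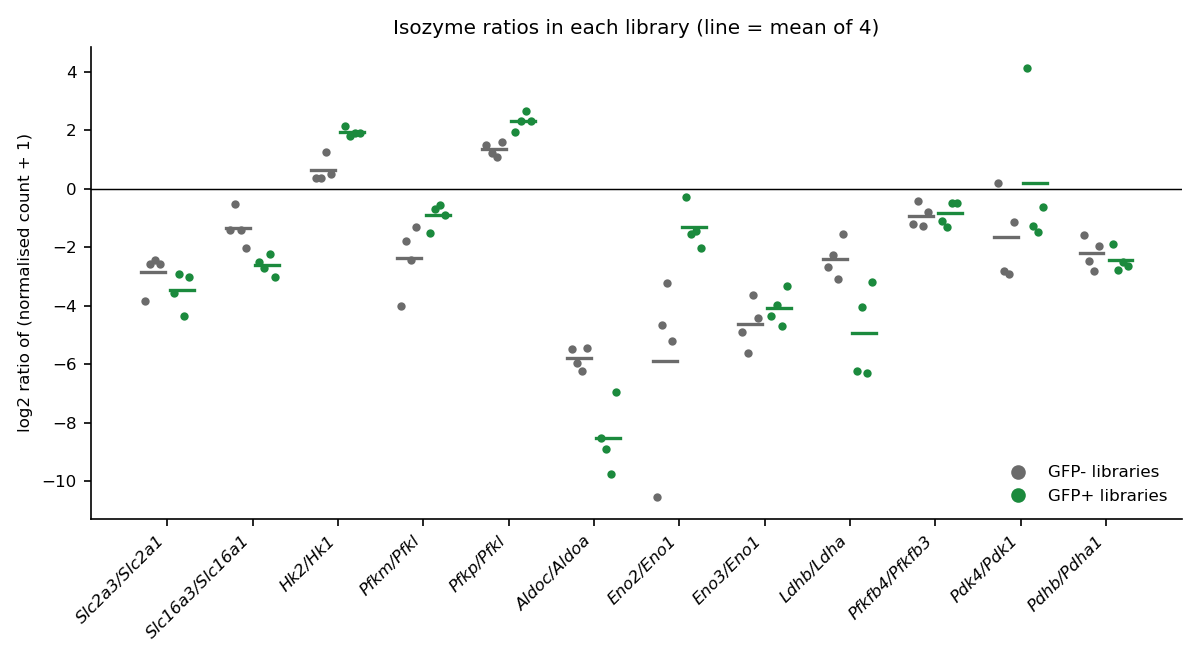
Log2 ratio of normalised counts plus 1 for 12 pairs of genes that act at the same step (y axis), in each GFP- library (grey) and GFP+ library (green), with a line at each mean of 4. Hk2/Hk1, Pfkp/Pfkl and Eno2/Eno1 lie higher, and Slc16a3/Slc16a1, Aldoc/Aldoa and Ldhb/Ldha lower, in every GFP+ library.

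Ldhb and Aldoc, with the steepest falls among the 39 genes, were also highest within each group where the melanocyte transcripts were. Summed melanocyte markers were 54390, 49710, 27170 and 78960 in GFP- replicates 1 to 4 and 4653, 8037, 4771 and 12540 in GFP+ replicates 1 to 4. Of the 14 genes called lower, Ldhb, Tpi1 and Eno1 put the 4 GFP+ libraries in the same order as these sums, and Aldoc and Pkm did so for the 4 GFP- libraries. In both groups replicate 4 was the highest by the markers and by 4 of the 14, Ldhb, Aldoc, Eno1 and Pkm. Among the 25 genes not called lower, 3 were highest in replicate 4 of both groups (Pfkfb2, Eno3 and Pdk4), 2 followed the marker order in GFP+ libraries (Pfkfb4 and Pdk4) and 1 in GFP- libraries (Pdk4). In the GFP- libraries, replicate 3, which is also the shallowest, was the lowest by the markers, by 11 of the 14 genes called lower (all but Slc2a3, Gapdh and Slc16a3) and by 11 of the 25 others, G6pdx among them. Among GFP+ libraries Hk1 and Ldha had another order, in which replicate 3 was the highest by both genes and among the lowest by the markers. Hk1 took nearly equal values, 1085 to 1093, in GFP+ replicates 1, 2 and 4, whose marker sums ran from 4653 to 12540. The share of melanocyte transcripts in the difference of any of these genes was not tested.

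**Figure D4:**
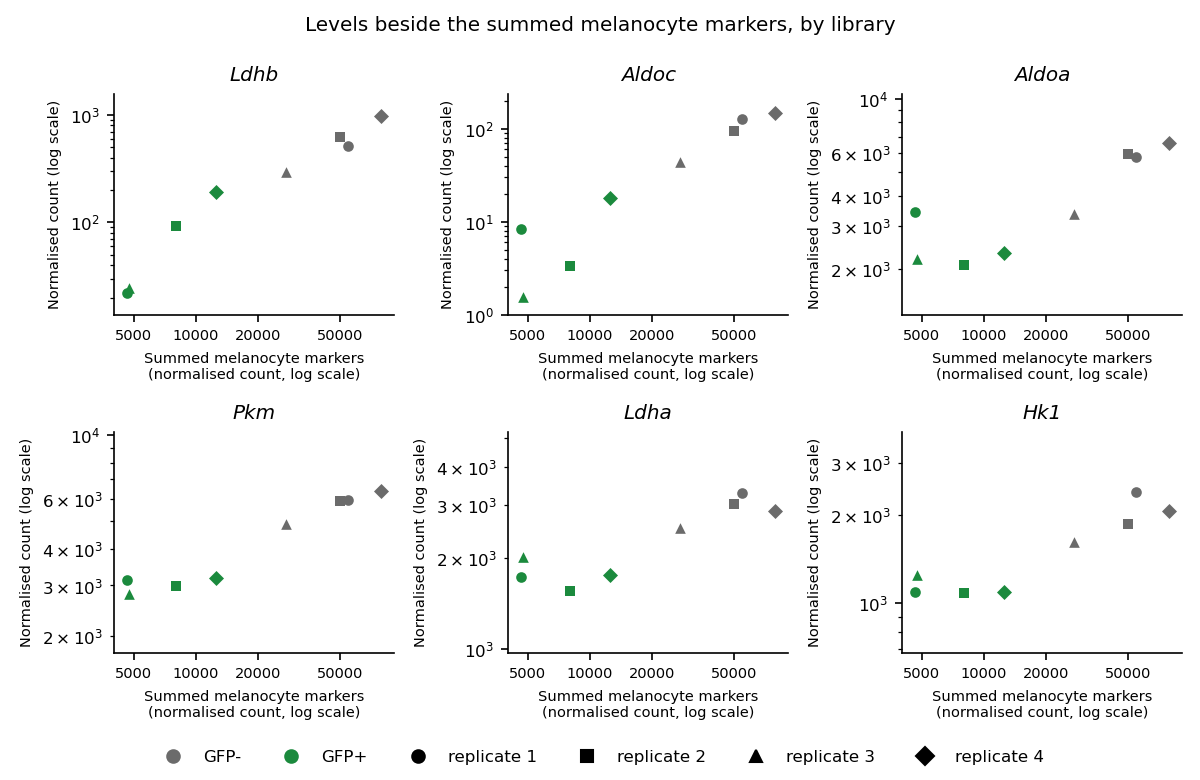
Normalised count of 6 of the genes called by both tests (y axes, log scale) against the summed normalised count of 14 melanocyte genes (x axes, log scale), 1 point a library, grey for GFP- and green for GFP+, with the replicate number as the shape. Ldhb and Aldoc are highest in replicate 4 of each group, where the markers are highest, while Pkm, Ldha and Hk1 vary little between GFP+ libraries.

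At the entry of pyruvate into the mitochondrion, 1 of 7 genes was called. Dlat (chromosome 9, 50634633 to 50659780, minus strand), the E2 subunit of pyruvate dehydrogenase, had 843, 672, 538 and 659 normalised counts in GFP- libraries and 107, 403, 453 and 330.1 in GFP+ libraries. No library overlapped, GFP+ replicate 1 was well below the rest, and Dlat fell by 1.07 ± 0.38 (SE). Its DESeq2 adjusted p was 0.0493 and its edgeR adjusted p 0.114, and DESeq2 no longer called it without any 1 of the GFP- replicates 1, 2, 3 and 4 (0.145, 0.114, 0.0516 and 0.114) or GFP+ replicates 2 and 4 (0.0505 and 0.0909). The E1 subunits Pdha1 and Pdhb differed by -0.02 ± 0.20 and -0.40 ± 0.38 (SE) on the log2 scale (adjusted p 0.98 and 0.605 by DESeq2). Pdha1 ran from 1223 to 2026 normalised counts in GFP- libraries and from 1348 to 1574 in GFP+ libraries. Among the kinases that inactivate the complex, Pdk1 had 63.8, 343, 341 and 219.6 in GFP- libraries and 1.39, 204, 157 and 166 in GFP+ libraries. Pdk1 had 1 raw count in GFP+ replicate 1, and its log2 fold change of -0.87 ± 1.09 (SE) was not called (adjusted p 0.727 by DESeq2). Pdk3 was lower in every GFP+ library (147 to 261) than in any GFP- library (264 to 386), by -0.71 ± 0.26 (SE) on the log2 scale, and was not called (adjusted p 0.0611 by DESeq2). That value was 0.0237 without GFP- replicate 3. Pdk2 and Pdk4, the kinase induced by fasting, differed by 0.49 ± 0.38 and 0.07 ± 0.47 (SE) on the log2 scale (adjusted p 0.512 and 0.966 by DESeq2).

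In the pentose phosphate branch 1 of 6 genes was called, and it was higher in GFP+ cells. G6pdx (chromosome X, 74409483 to 74429194, minus strand), glucose 6-phosphate dehydrogenase, which commits glucose to this branch and makes NADPH, had 689, 803, 670.2 and 747 normalised counts in GFP- libraries and 1573, 1012, 1198 and 816 in GFP+ libraries. GFP+ replicate 4 lay just above the highest GFP- library, and the groups did not overlap. G6pdx rose by 0.65 ± 0.23 (SE) on the log2 scale, a 1.57-fold difference (adjusted p 0.0492 by DESeq2 and 0.0879 by edgeR). Leaving out GFP+ replicate 4 kept that call, and leaving out any other single library lost it: the DESeq2 adjusted p was 0.131, 0.0858, 0.0911 and 0.114 without GFP- replicates 1 to 4 and 0.148, 0.0673 and 0.153 without GFP+ replicates 1 to 3. It was also lost with limma voom (adjusted p 0.151) and without independent filtering (0.0922). The other enzymes were not called and overlapped between groups. Their log2 fold changes were 0.45 ± 0.39 (SE) for Pgls, the lactonase, -0.23 ± 0.23 for Pgd, which makes the second NADPH, -0.15 ± 0.33 for Rpia, which makes ribose 5-phosphate, -0.07 ± 0.24 for transketolase Tkt and -0.42 ± 0.22 for transaldolase Taldo1, and DESeq2 gave them adjusted p from 0.26 to 0.928. Tkt ran from 1044 to 1327 normalised counts in GFP- libraries, and in GFP+ libraries 3 lay between 934 and 954 and replicate 1 at 1727. The 6 genes together took 0.0364% ± 0.00411 (SD, n = 4) of GFP- reads and 0.0337% ± 0.00569 (SD, n = 4) of GFP+ reads, and the libraries of the groups overlapped.

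**Figure D5:**
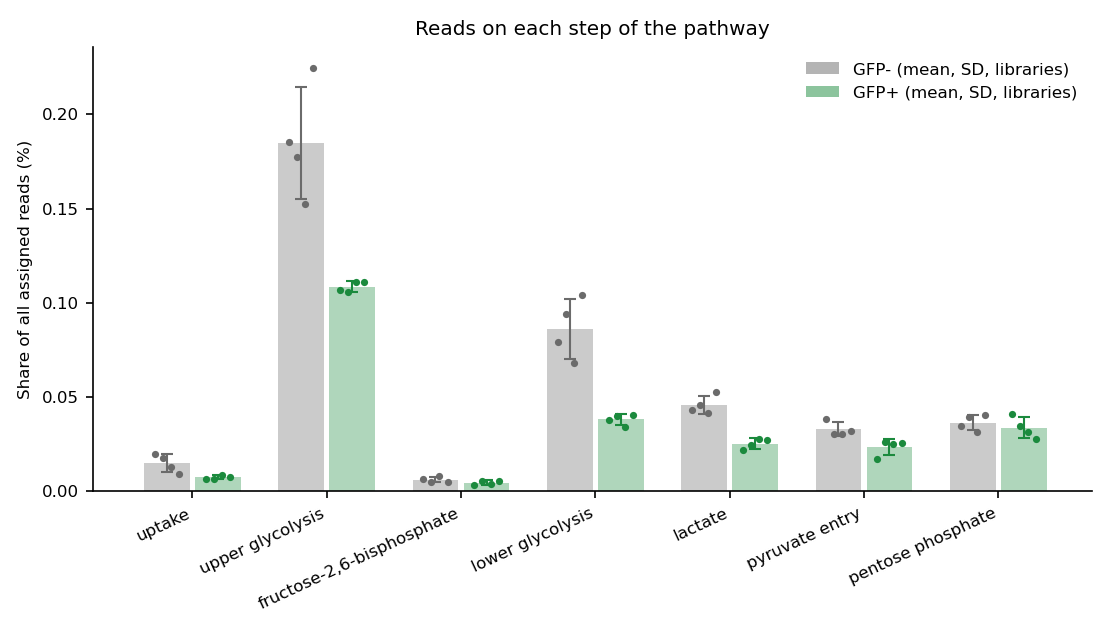
Share of all reads assigned to genes that fell on each of the 7 steps (y axis, %), with bars at the mean of 4 libraries, error bars of 1 SD and a dot for each library, grey for GFP- and green for GFP+. Uptake, upper glycolysis, lower glycolysis, lactate and pyruvate entry are lower in every GFP+ library than in any GFP- library, from 0.185% to 0.109% in the mean for upper glycolysis, while the fructose 2,6-bisphosphate and pentose phosphate steps overlap. For uptake the gap in shares is narrow, 0.00928% in GFP- replicate 4 beside 0.00888% in GFP+ replicate 3. By normalised counts, Slc2a1 of this step overlaps, with 732 in GFP- replicate 4 and 968 in GFP+ replicate 3.

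Among 60 further genes of glucose and pyruvate metabolism, 46 received an adjusted p, of which 3 were called higher (6.52%) and 2 lower (4.35%), close to the 4.66% and 4.76% of all genes tested, and the edgeR test called 2 higher and 1 lower. Their median log2 fold change was -0.03. Without GFP- replicate 3, 3 were called higher (6.52%) and 6 lower (13%), against 6.13% and 5.89% of all genes tested in that fit, so that the share called lower was then above that of all genes. H6pd, which does in the endoplasmic reticulum what G6pdx does in the cytosol, averaged 929 ± 169 normalised counts (SD, n = 4) over GFP- libraries and 1516 ± 131 (SD, n = 4) over GFP+ libraries, without overlap, and rose by 0.72 ± 0.19 (SE) (adjusted p 0.00269 by DESeq2 and 0.0266 by edgeR). Emb, a partner protein of monocarboxylate transporters, rose by 1.23 ± 0.33 (SE) (adjusted p 0.00437 by DESeq2 and 0.0341 by edgeR). Slc2a5, the fructose transporter GLUT5, fell by 2.92 ± 0.63 (SE) (adjusted p 1.79e-04 by DESeq2 and 0.0326 by edgeR). Gpd1, the cytosolic glycerol 3-phosphate dehydrogenase, fell by 2.34 ± 0.61 (SE), and Pgm2l1, a synthase of glucose 1,6-bisphosphate, rose by 1.57 ± 0.49 (SE), both by DESeq2 alone, with edgeR adjusted p of 0.0586 and 0.134. None of the 8 further pyruvate genes was called, with log2 fold changes from -1.14 (Pdhx) to 0.87 (Pdp1).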

How the data were processed

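Libraries had been prepared with the SMARTer Pico stranded total RNA kit and sequenced on a NextSeq. Per the study's methods and the submitters' processing notes, the authors trimmed reads with cutadapt 3.4, mapped them to GRCm38 with STAR 2.7.3a and assigned them to genes, by strand, with featureCounts 2.0.1. The authors deposited raw read counts per gene and library, which every value here starts from, and a normalised score per gene and library, the count divided by a DESeq2 size factor and rounded; the size factors computed here matched it within rounding. The table also holds the authors' means, fold changes, p-values and adjusted p-values, which were not used. Per-sample columns left unused: 0. Counting of reads shared with near copies can lose or split them. Coordinates and exon lengths came from GENCODE M21 (GRCm38), which held 53706 of 53801 gene identifiers (99.82%), and promoters from RefSeq.

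All genes with a count were fitted with DESeq2 1.42.0 (group only, default size factors, independent filtering, two-sided Wald test), with Benjamini-Hochberg adjustment over all genes, and a gene was called at an adjusted p under 0.05. edgeR 4.0.16 (quasi-likelihood, TMM) was run beside it, in R 4.3.3. A symbol with several identifiers took the one with most counts. Isozyme ratios were tested by exact permutation (two-sided) in Python 3.11.15. The code was tested on simulated data. Other settings were limma voom (3.58.1), TMM factors in DESeq2, size factors from abundant genes (mean count 100 or more), a minimum mean count of 10, independent filtering off, Cook's distance filter off, the replicate block, an adjusted p under 0.01, counts of near copies added, pseudocounts of 0.1 and 10, and each library left out in turn. The members, lists and pairs were chosen with earlier results of these data known, so that none is independent of them. All 39 members are named, with every library's value for called members, their paired isozymes and the first gene of each step. Of the 60 further pathway genes, those called are named, and Pdhx and Pdp1 were added after their values were seen. No library was a copy of another: within groups, pairs of replicates differed with a chi-square of 9.68 to 72.96 per degree of freedom. The labels give no batch. Total counts set the depth, and the spread between libraries is the error given. Marker lists besides those in the text had few calls: of 10 leukocyte, 6 endothelial, 6 skeletal muscle, 6 erythroid, 4 adipocyte and 4 keratinocyte genes 0 were called by DESeq2 or edgeR, of 5 pericyte genes 1 was higher, of 4 Schwann cell genes 2 were lower, of 10 hypoxia genes outside glycolysis 2 were higher and 1 lower, and of 5 reporter and sort genes 3 were higher (all by DESeq2).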

Additional observations from a re-analysis of the deposited data

Results flagged for a closer look

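Among 118 groups of 4 libraries (each gene, isozyme ratio and step, in each group), 8 had a highest or lowest library whose gap to the nearest other library, as a share of the group's range, exceeded Dixon's critical value, where chance gives about 5.9, or 1 in 20. Hk1 had 1251 normalised counts in GFP+ replicate 3 beside 1085 to 1093 in the other GFP+ libraries. Pfkfb2 was highest in replicate 4 of both groups, at 7.88 in GFP- and 9.06 in GFP+, beside at most 0.72 and 0.77 in the other libraries. Pgk1, phosphoglycerate kinase, had 187 in GFP- replicate 3, the shallowest library, beside 702 to 784 in the other GFP- libraries. The transketolase gene Tkt had 1727 in GFP+ replicate 1 beside 934 to 954 in the others. In the same library the log2 ratio of Pdk4 to Pdk1 was 4.11, beside -1.49 to -0.62, with 1 raw count of Pdk1. That library also had the lowest share of counts on the genes of pyruvate entry, 0.0170%, beside 0.0250% to 0.0260%. The log2 ratio of Slc2a3 to Slc2a1 was -3.85 in GFP- replicate 1, beside -2.58 to -2.42. GFP+ replicate 1 accounts for 3 of the 8 and had the fewest counts of the GFP+ libraries, 8776925.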

How the results depend on the processing

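The count of genes called lower, 14, ran from 10 (edgeR) to 14 over the other settings and from 10 to 14 over the fits that left out 1 library. The genes were not always the same, since Slc2a1, Pgk1 or Pdk3 gained the call in some settings where others of the 14 lost it. The count of genes called higher, 1 (G6pdx), became 0 with edgeR, without independent filtering and at an adjusted p under 0.01, 2 (G6pdx and Hk2) with TMM factors in DESeq2 and at a minimum mean count of 10, and 0 to 1 with 1 library left out. The 1 gene was Hk2 with limma voom and without GFP- replicate 3, and Eno2 without GFP- replicate 1. The 5 called genes of the further pathway list became 3 with edgeR and 5 to 9 with 1 library left out. Of 699 values of single genes under other settings, 622 kept direction and side of the threshold, 44 lost and 11 gained the call and 22 changed sign. Of the 15 called genes, 10 kept their call in every setting: Hk1, Gpi1, Pfkl, Aldoa, Aldoc, Tpi1, Eno1, Pkm, Ldha and Ldhb. The sign changes were those of genes not called. With 1 library left out the log2 fold change ran from -0.36 to 0.33 for Pfkm, -3.13 to 1.78 for Pfkfb2, -0.19 to 0.35 for Pdk4, -0.11 to 0.16 for Pdha1, -0.572 to 0.076 for Pdhb, -0.332 to 0.017 for Tkt and -0.279 to 0.047 for Rpia. Pdha1 was 0.064 with limma voom. The ratio of Pfkfb4 to Pfkfb3 was as low as -0.032 with 1 library left out, and of 144 ratio values 139 kept their direction and side of the threshold. The causes were not tested.

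Same-numbered libraries correlated at 0.08, -0.18, -0.13 and 0.25 in their deviations from the group means over 10549 genes. Among all combinations of a GFP- with a GFP+ library, replicates 4 had the highest value and replicates 2 the lowest. Deviations from a group mean depend on each other, so these values cannot show whether same-numbered libraries were paired. With the replicate block, 13 of the 39 genes were called lower and 1 higher, which was Hk2 (adjusted p 0.0054) and not G6pdx (0.0802). Gapdh lost its call (log2 fold change -1.30, adjusted p 0.128), Pfkm changed sign (0.21) and so did Pdha1 (0.008). Over all genes 755 were then higher and 737 lower. Adding near copies changed no count of calls. Depth limits genes such as Pfkfb1, Pfkfb2, Aldoc in GFP+ libraries and Pdk4, which GFP- replicate 3 covered with few reads. Pseudocounts of 0.1 and 10 gave a ratio of Eno2 to Eno1 of 5.42 and 3.67 and of Aldoc to Aldoa of -3.03 and -1.56.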
